A study of Mus musculus with 8 samples.

Results

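Complement receptors and membrane regulators are the surface proteins through which a cell senses complement fragments or protects itself from them. Transcripts of 9 such genes were taken by gene symbol from a deposited table of 56691 genes: the anaphylatoxin receptors C3ar1, C5ar1 and C5ar2, the integrin chains Itgam, Itgax and Itgb2, and the regulators Cr1l, Cd55 and Cd59a. All 9 were found, and all 9 passed the filter on low counts that kept 15870 genes for testing. The cells were Kupffer cells, the macrophages that live in the liver sinusoids, sorted as living cells positive for CD45, a protein of all leukocytes, and for Tim-4, a receptor of resident Kupffer cells.

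The libraries came from VSIG4 KO mice (n = 4) and WT mice (n = 4). Every mouse had received B16F10 melanoma cells 7 days before, and the digested livers carried B16F10 metastases in both genotypes, so no liver without tumour served as a baseline. The labels write the KO genotype as Vsig4-/- and do not describe the allele, the age or the sex of the mice, or say whether each library came from a separate animal. The p-values therefore measure the spread between libraries, which may be technical in part. The series asks how Kupffer cells act on T cells through VSIG4 and CD5. For the genes described here the comparison asks whether the other complement receptors and regulators differ when the complement receptor Vsig4 is missing.

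Complement is a cascade of plasma proteins that marks particles for uptake, releases small attractant peptides and builds a pore in membranes. Cleavage of C3 and C5 releases the anaphylatoxins, which bind G protein-coupled receptors, while the C3b and iC3b left on a particle are bound by VSIG4 and by the beta2 integrins CR3 (Itgam with Itgb2) and CR4 (Itgax with Itgb2). Host cells carry regulators that stop the cascade on their own surface. Kupffer cells clear complement-coated bacteria and particles from the blood, and VSIG4 is one of the receptors that they use for it.

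The libraries held 15264043 to 19513844 counts. Vsig4 had 2 to 9 counts in the KO libraries and 22498 to 46735 counts in the WT libraries, as the labels state. Each of the 12 Kupffer markers, Vsig4 among them, was detected. Their summed level was 7565 to 23581 CPM in KO and 20735 to 37404 CPM in WT libraries, where CPM are counts scaled to a common library size. Vsig4 itself made up 1392 to 2890 CPM of the WT sums. Melanoma transcripts were present in every library: 10 melanoma genes summed to 2381 to 12106 CPM (the highest in KO 3) in KO and to 405 to 5379 CPM (the lowest in WT 2 and WT 1) in WT libraries. KO 3 was also the library with the lowest Kupffer sum, and values with single libraries left out are given below.

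Among the 9 genes Itgax, the alpha chain of CR4 also known as CD11c, was the one whose KO libraries all lay above all WT libraries, at 132 ± 20.2 CPM in KO and 99.5 ± 12.8 CPM in WT (SD, n = 4 each). KO libraries also lay wholly above WT libraries in 2.71% of all tested genes, and wholly below in 2.85%. The other 2 genes with higher fitted values in KO were Cd59a and C5ar1, and the remaining 6 (C3ar1, C5ar2, Itgam, Itgb2, Cr1l and Cd55) had lower ones. In edgeR's quasi-likelihood test 0 of the 9 passed an adjusted p of 0.05, where 0.0063% of all tested genes passed. At an unadjusted p under 0.05, 1 of the 9 passed (Itgax, higher in KO), against 8.78% of all genes in either direction and 4.23% with higher levels in KO. DESeq2 called 0 of the 9, where it called 0.391% of all genes, and limma on log2(FPKM + 1) called 0 of the 9 as well. The median log2 fold change of the 9, KO minus WT, was -0.28, against -0.0028 over all tested genes, of which 50.4% had lower values in KO.

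By level per transcript length the 9 genes spanned 81.1-fold. Itgb2, the shared beta chain CD18, had 162 ± 42.0 FPKM over the 8 libraries (deposited values, in which counts are scaled to exon length and library total) and stood above every other member in 8 of 8 libraries. C3ar1 followed with 41.0 ± 9.82 FPKM and exceeded Itgax in 7 of 8 libraries. Neighbours in the order then changed places between libraries: Itgax (24.3 ± 6.01 FPKM) was above C5ar1 (23.2 ± 5.17 FPKM) in 5 of 8 libraries, and C5ar1 was above Cd55 (16.1 ± 5.36 FPKM) in 6 of 8. Below these, Cd55 exceeded Itgam (13.6 ± 3.19 FPKM) in 5, Itgam exceeded Cr1l (9.82 ± 1.66 FPKM) in 7, and Cr1l exceeded C5ar2 (9.04 ± 3.39 FPKM) in 5 of 8 libraries. Cd59a was the lowest in all 8, at 1.99 ± 0.704 FPKM and 25 to 108 counts per library, so counting error was largest for it.

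**Figure D1:**
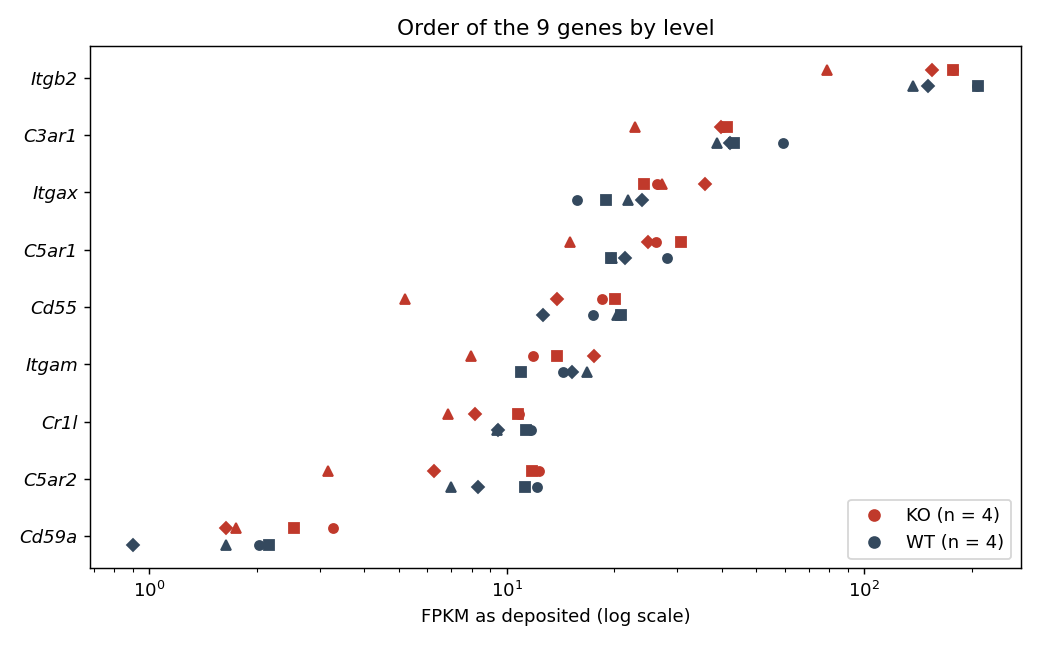
Deposited FPKM of the 9 genes on a logarithmic axis, 1 point per library, KO above WT in each row and the marker shape giving the number in the sample title. Itgb2 lies above the other genes in all 8 libraries and Cd59a below them, while the points of neighbouring genes between them overlap.

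The KO and WT libraries overlapped for each of the 3 anaphylatoxin receptors. C3ar1 (ENSMUSG00000040552, chromosome 6, 122824097 to 122833120) encodes the receptor of the small C3 fragment. Positions are given as deposited, and the file does not name their build. They differ from the GRCm38.p6 positions of the RefSeq sequences below, although the submitters' processing notes list mm10. C3ar1 had 176, 177, 92.4 and 160.3 CPM in KO 1 to 4, and 277, 204, 164 and 179 CPM in WT 1 to 4. WT 1 was the highest and KO 3 the lowest, while KO 1 and KO 2 lay within the WT range and KO 4 just below it. Its log2 fold change, KO minus WT, was -0.44 ± 0.242 (SE; adjusted p = 0.492). It ran from -0.55 without WT 3 to -0.27 without WT 1 or KO 3, and C3ar1 was lower in KO in 4 of 4 same-numbered pairs. For this and the later pair counts, the share of all tested genes was not determined, and the labels name no pairs. In every such pair the Kupffer sum was lower and the melanoma sum higher in KO. In a bulk sample, fewer cells with a transcript and less of it per cell cannot be told apart, which holds for every gene here.

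C5ar1 (ENSMUSG00000049130, chromosome 7, 15980668 to 15993465) encodes the signalling receptor of the small C5 fragment. It had 68.1, 78.5, 36.3 and 59.8 CPM in KO 1 to 4, and 78.7, 54.9, 49.6 and 54.2 CPM in WT 1 to 4. The KO range covered almost all of the WT range, and the log2 fold change was 0.032 ± 0.242 (adjusted p = 0.951), from -0.12 without KO 2 to 0.21 without KO 3. C5ar2 (ENSMUSG00000074361, chromosome 7, 15968510 to 15978079), next to C5ar1, encodes the other receptor of that fragment, which does not couple to G proteins. It had 44.4, 41.9, 10.6 and 21.0 CPM in KO 1 to 4, and 47.2, 43.8, 24.3 and 29.0 CPM in WT 1 to 4. In both genotypes numbers 1 and 2 were high and numbers 3 and 4 low, and KO 3 was the lowest. The log2 fold change of C5ar2 was -0.29 ± 0.434 (adjusted p = 0.717), from -0.56 without KO 1 to -0.019 without KO 3. C5ar2 was lower in KO in 4 of 4 same-numbered pairs.

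Set against each other within a library, which removes the scaling, C5ar2 had 47.1, 38.5, 21.0 and 25.3 per 100 C5ar1 by length in KO 1 to 4, and 43.3, 57.6, 35.3 and 38.7 in WT 1 to 4. The ratio averaged 33.0 ± 12.0 in KO and 43.7 ± 9.84 in WT, and the genotypes overlapped (exact 2-sided permutation p = 0.229, adjusted p = 0.343 over 6 ratios; lower in KO in 3 of 4 same-numbered pairs). C5ar1 was thus the more abundant of these receptor transcripts in every library.

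**Figure D2:**
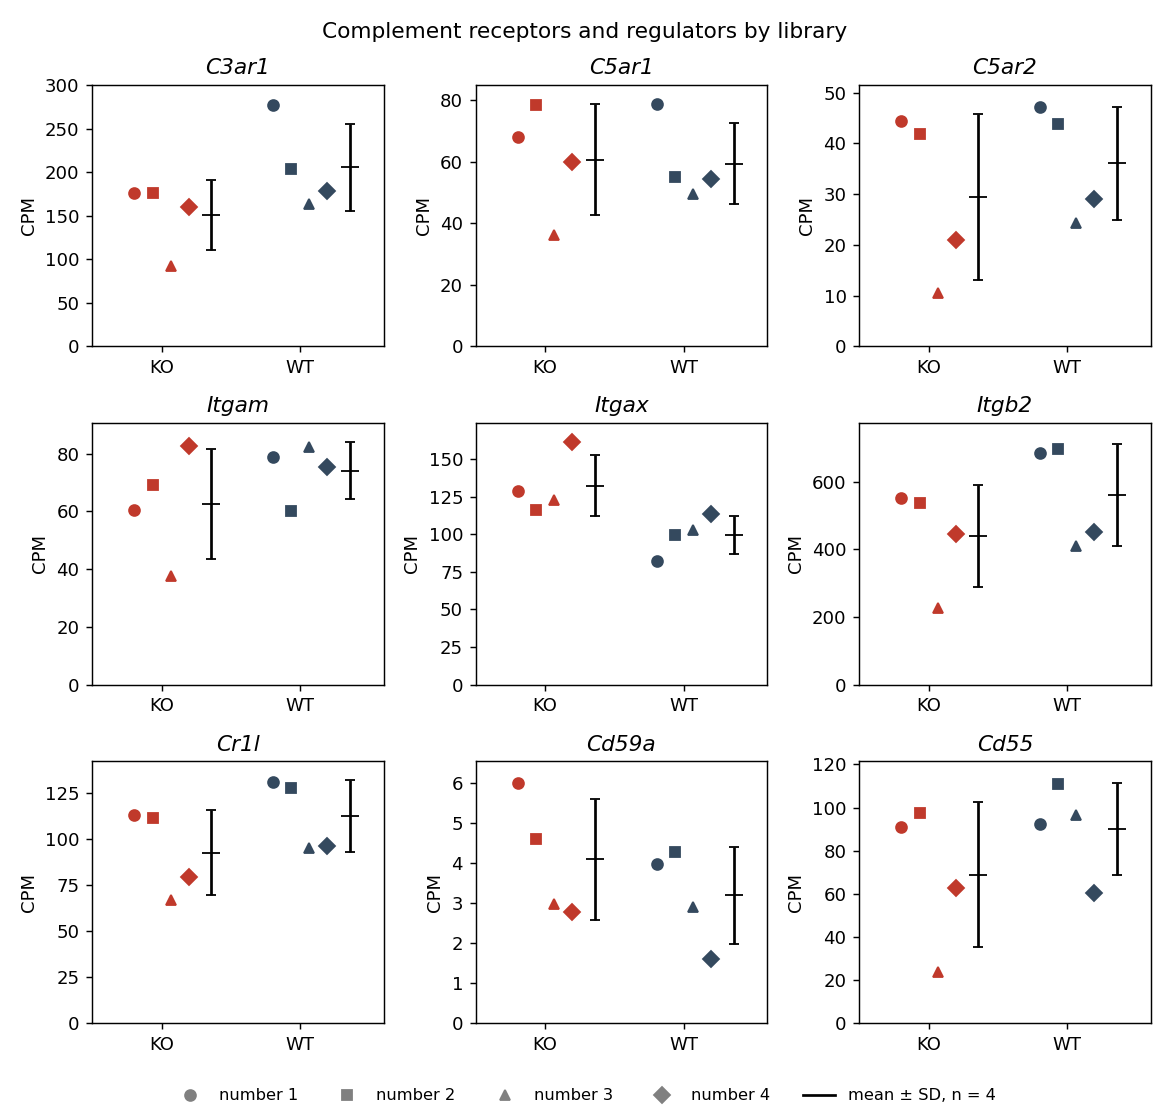
CPM of each of the 9 genes, with 1 point per library, KO left of WT, the marker shape giving the number in the sample title, and a bar for the mean ± SD (n = 4). In Itgax all 4 KO points lie above all WT points, whereas the genotypes overlap in the other 8 genes, and KO 3 (triangle) is the lowest KO point in 7 of the 9 panels.

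Among the integrin chains Itgax had higher and Itgam and Itgb2 had lower fitted values in KO. Itgam (ENSMUSG00000030786, 127661812 to 127717663) and Itgax (ENSMUSG00000030789, 127728719 to 127749829) lie side by side on the plus strand of chromosome 7, in the deposited coordinates. The fitted values of these neighbouring genes differed in sign, but neither gene passed in the fit without a block. The 250 bases before each start are shown as a description, and their part in the fitted values was not tested. They are from RefSeq (GRCm38.p6, plus strand), Itgam at chr7:128062390-128062639 and Itgax at chr7:128129300-128129549, with capitals marking each GAGGAA, a core bound by the myeloid factor PU.1, or its reverse complement TTCCTC.

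Itgam: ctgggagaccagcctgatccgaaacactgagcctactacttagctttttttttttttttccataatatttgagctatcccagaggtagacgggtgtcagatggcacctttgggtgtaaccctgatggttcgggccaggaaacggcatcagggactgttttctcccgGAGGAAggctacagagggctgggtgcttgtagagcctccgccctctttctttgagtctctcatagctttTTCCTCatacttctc

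Itgax: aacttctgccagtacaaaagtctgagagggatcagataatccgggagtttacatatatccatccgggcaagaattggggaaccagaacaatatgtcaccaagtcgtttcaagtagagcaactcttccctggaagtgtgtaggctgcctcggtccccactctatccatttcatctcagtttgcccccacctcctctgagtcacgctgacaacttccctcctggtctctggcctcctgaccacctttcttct

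The Itgam window held 2 matches, which begin 84 bases before the start on the gene's strand and 15 bases before it on the other strand, and the Itgax window held 0. Of 32851 RefSeq promoters of the same length, 23.3% held a match on either strand. A match is a description of the letters, not a bound site. RefSeq promoters were matched for 8 of the 9 genes, in 9 windows (2 for C5ar2), of which 3 held GAGGAA. The core of the interferon-stimulated response element was also searched, and was found in 1 of the 9 windows (Cd59a) and in 2.98% of all promoters.

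Itgax had 129, 116, 123 and 162 CPM in KO 1 to 4, and 82.3, 99.8, 103 and 113 CPM in WT 1 to 4. The lowest KO library (KO 2) lay just above the highest WT library (WT 4), so the groups did not overlap. The groups did not overlap in 5.56% of all tested genes, with KO higher in 2.71% and KO lower in 2.85%, and Itgax was the 1 of the 9 of which this held. The log2 fold change was 0.41 ± 0.142, or 1.33-fold, with an adjusted p of 0.492 in edgeR's quasi-likelihood test, and ran from 0.29 without KO 4 to 0.47 without WT 4.

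With the number in the sample title as a block, the log2 fold change of Itgax was 0.41 ± 0.102 (adjusted p = 0.0408 in edgeR's test), so Itgax rose in KO in that fit. It was the only one of the 9 to pass, where 14% of all tested genes passed, 8.98% with higher levels in KO. The block holds only if equal numbers mark pairs, which the labels do not say. Without number 1, 2 or 3 the blocked fit called 0 of the 9, where 1.32%, 0.0126% and 0.0063% of all genes passed. Without number 4 it called 1, C3ar1, which was lower in KO, where 13.9% of all genes passed, 4.68% with lower levels in KO. The adjusted p of Itgax ran from 0.0832 to 0.122 in these 4 fits. Within same-numbered pairs Itgax was higher in KO in 4 of 4, and the melanoma sum was too. With both the block and the melanoma genes in the fit, chosen after seeing the data, Itgax was at 0.50 ± 0.234 (adjusted p = 0.701) and 0 of the 9 passed, where 0.0126% of all genes did.

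Itgam, the alpha chain of CR3 known as CD11b, had 60.4, 69.1, 37.6 and 82.9 CPM in KO 1 to 4, and 78.7, 60.2, 82.5 and 75.3 CPM in WT 1 to 4. KO 4 was the highest of all 8 and KO 3 the lowest, and the log2 fold change was -0.25 ± 0.225 (adjusted p = 0.570), from -0.42 without KO 4 to -0.068 without KO 3. Itgb2 (ENSMUSG00000000290, chromosome 10, 77366086 to 77401542) encodes the beta chain without which neither alpha chain reaches the surface. It had 551, 538, 226 and 444 CPM in KO 1 to 4, and 685, 696, 410.02 and 452 CPM in WT 1 to 4. It was lower in KO in 4 of 4 same-numbered pairs, with a log2 difference from -0.86 for number 3 to -0.023 for number 4. Its log2 fold change was -0.35 ± 0.307 (adjusted p = 0.559), from -0.48 without WT 3 to -0.14 without KO 3.

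Per 100 Itgb2 by length, Itgax stood at 14.9, 13.7, 34.6 and 23.1 in KO 1 to 4, and at 7.64, 9.11, 15.9 and 15.9 in WT 1 to 4. It was higher in KO in 4 of 4 same-numbered pairs, while the genotypes as a whole overlapped (exact permutation p = 0.171, adjusted p = 0.343 over 6 ratios). Itgam stood at 8.98 ± 2.12 per 100 Itgb2 in KO and at 8.65 ± 3.12 in WT (exact permutation p = 0.80, adjusted p = 0.80). Per 100 Itgam, a ratio chosen after the values were seen, Itgax was at 223, 175, 342 and 204 in KO 1 to 4, and at 109, 173, 130.3 and 157 in WT 1 to 4. The lowest KO value (KO 2) was just above the highest WT value (WT 2), and the exact permutation p was 0.0286, the smallest that 4 against 4 libraries can give (adjusted p = 0.0857).

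Itgal, the alpha chain of LFA-1, was the most abundant partner of Itgb2 in these libraries. Of the summed level per length of the alpha chains Itgal, Itgam, Itgax and Itgad, Itgal held 66.8% ± 9.32 in KO and 77.9% ± 7.33 in WT (n = 4 each). Itgax held 16.8% to 34.6% in KO and 8.34% to 17.4% in WT, ranges that overlap slightly (exact permutation p = 0.0857, adjusted p = 0.286 over 4 chains). These shares were chosen after the values were seen. The share of Itgam was 9.88% ± 1.85 in KO and 9.21% ± 3.24 in WT (exact permutation p = 0.714, adjusted p = 0.714).

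Itgam and Itgax are also expressed by other myeloid cells that the sort could hold. The 7 dendritic cell markers summed to 192 to 322 CPM in KO and to 209 to 337 CPM in WT libraries. The 7 monocyte markers summed to 378 to 597 CPM in KO and to 592 to 721 CPM in WT, and the 8 neutrophil markers to 50.4 to 108 CPM in KO and to 50.0 to 104 CPM in WT. No marker of these lists was at 0 in all 8 libraries. The dendritic cell and neutrophil sums thus overlapped between genotypes and the monocyte sum was mostly lower in KO. Single markers went both ways. Among tested markers, values were higher in KO for 4 of 7 of dendritic cells, 4 of 6 of neutrophils and 2 of 7 of monocytes. The part of these cells in the integrin values was not tested.

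**Figure D3:**
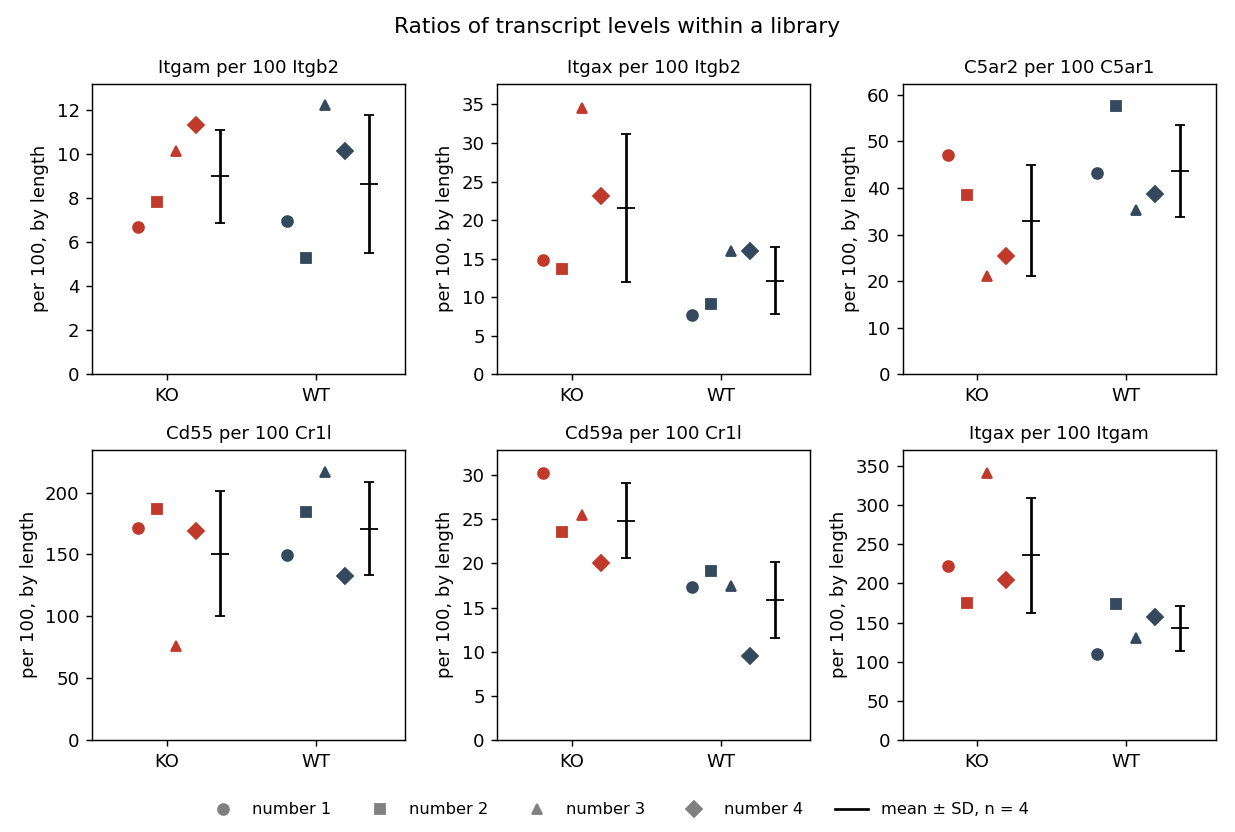
Ratios of transcript levels by exon length within each library, given per 100 of the second gene, with KO left of WT, the marker shape giving the number in the sample title and bars for the mean ± SD (n = 4). Cd59a per Cr1l and Itgax per Itgam have no overlap between KO and WT, and the other 4 ratios overlap.

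Of the membrane regulators, Cr1l and Cd55 had lower and Cd59a had higher fitted values in KO. Cr1l (ENSMUSG00000016481, chromosome 1, 194779690 to 194813894) encodes Crry, the rodent protein that blocks the C3 convertases. It had 113, 111, 66.9 and 79.4 CPM in KO 1 to 4, and 131, 128, 95.0 and 96.5 CPM in WT 1 to 4. It was lower in KO in 4 of 4 same-numbered pairs, with a log2 fold change of -0.28 ± 0.202 (adjusted p = 0.512), from -0.39 without KO 1 to -0.16 without KO 3. Cd55 (ENSMUSG00000026399, chromosome 1, 130366764 to 130390481) encodes the decay-accelerating factor, which dismantles the convertases. It had 91.2, 97.4, 23.7 and 62.8 CPM in KO 1 to 4, and 92.2, 111, 96.5 and 60.2 CPM in WT 1 to 4. KO 3 was far below the other 7 libraries, and the log2 fold change of -0.39 ± 0.395 (adjusted p = 0.606) ran from -0.60 without KO 2 to -0.11 without KO 3.

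Cd59a (ENSMUSG00000032679, chromosome 2, 103926146 to 103945699) encodes an inhibitor of the assembly of the membrane attack complex. It had 6.01, 4.59, 2.99 and 2.78 CPM in KO 1 to 4, and 3.99, 4.27, 2.91 and 1.61 CPM in WT 1 to 4. The groups overlapped, and KO was higher in 4 of 4 same-numbered pairs, with a log2 fold change of 0.36 ± 0.377 (adjusted p = 0.614). It was 0.11 without KO 1 and 0.13 without WT 4, and up to 0.52 without WT 2. Per 100 Cr1l by length it stood at 30.3, 23.6, 25.5 and 20.0 in KO 1 to 4, and at 17.3, 19.1, 17.5 and 9.52 in WT 1 to 4. All KO values of this ratio were above all WT values (24.8 ± 4.27 in KO and 15.9 ± 4.30 in WT; exact permutation p = 0.0286, the smallest possible, and adjusted p = 0.0857 over 6 ratios). Cd55 per 100 Cr1l was at 151 ± 50.5 in KO and 171 ± 37.3 in WT (exact permutation p = 0.657, adjusted p = 0.789). The close copies Cd59b and Cd55b had 0 to 5 and 0 to 2 counts per library, and reads shared with them would make the levels of Cd59a and Cd55 uncertain.

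Several directions changed with the melanoma covariate or with libraries left out, and the cause was not tested. With the mean log2 CPM of the melanoma genes as a covariate, 0 of the 9 genes passed, and the fold changes were 0.31 ± 0.147 for Itgax, 0.87 ± 0.302 for Cd59a and -0.26 ± 0.241 for Itgam (log2, KO minus WT). In that fit C3ar1 was at -0.14 ± 0.189, Itgb2 at 0.078 ± 0.198 and Cr1l at 0.0025 ± 0.133. Without WT 1, WT 2 and KO 3, the libraries at the ends of the melanoma range, C3ar1 was at 0.00042 ± 0.106 and Itgax at 0.33 ± 0.160. C5ar1 was at 0.28 ± 0.210 with the covariate and at 0.41 ± 0.138 without those libraries. Itgax, Cd59a and C5ar1 thus had higher values in KO under all of these fits, though C5ar1 changed sign with single libraries left out. Values of C3ar1, C5ar2, Itgb2, Cr1l and Cd55 were lower in some fits and higher in others. With the covariate 0.0063% of all tested genes passed.

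**Figure D4:**
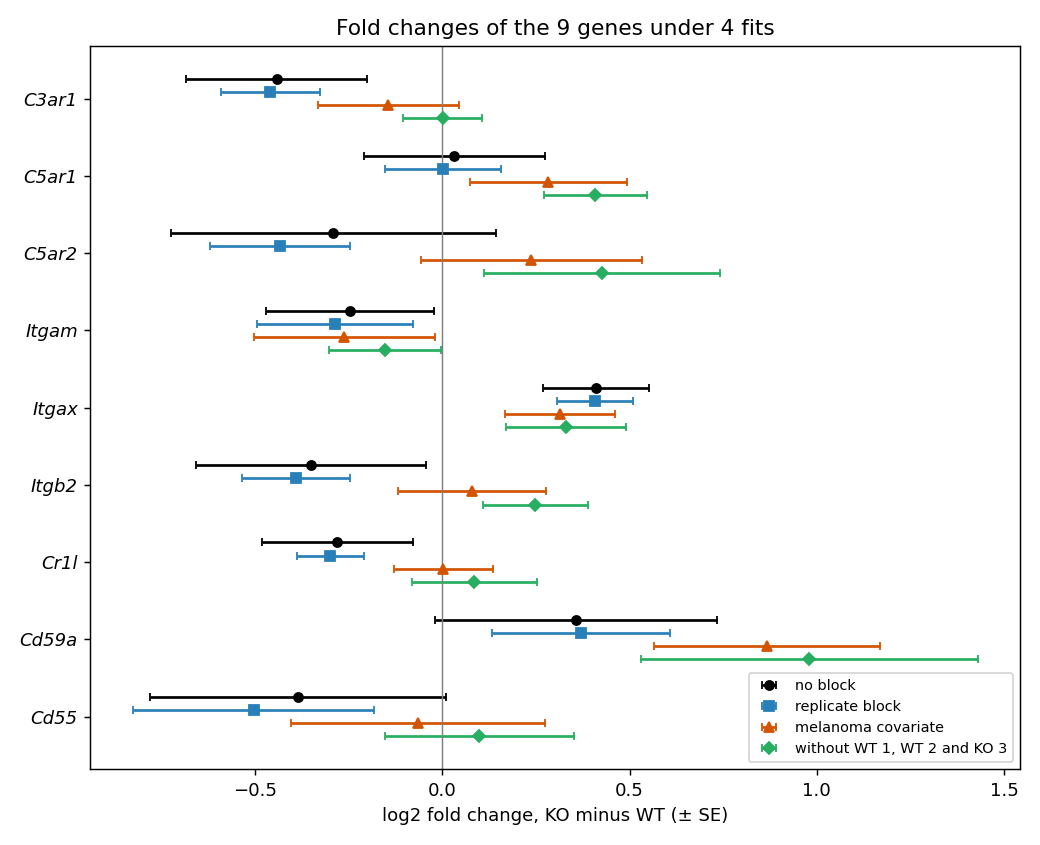
Log2 fold changes, KO minus WT, of the 9 genes with SE bars under 4 fits: without a block, with the sample number as a block, with the melanoma covariate, and without WT 1, WT 2 and KO 3. Itgax, Cd59a and C5ar1 (0.0017 with the block) lie to the right of 0 in all 4 fits, and Itgam lies to the left. Itgb2, C5ar2, Cr1l and Cd55 lie on both sides, and C3ar1 lies to the left or at 0.

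Scaling each library to 11 Kupffer markers (without Vsig4) in place of all counts moved the median log2 fold change of all tested genes to 0.81, since these markers were lower in KO. Relative to that median, Itgax stood at 0.38 and Cd59a at 0.30, while the other 7 genes were below it, from -0.11 for C5ar1 to -0.69 for Cd55. The directions relative to all genes were the same as without this scaling for every member except C5ar1. Subtracting the median largely undoes the scaling, so this sameness is no separate check. Before the subtraction every member had a value above 0, from 0.12 for Cd55 to 1.19 for Itgax.

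The members did not all follow the same pattern across libraries. Over the 8 libraries the log2 CPM of Itgb2 had a Pearson r of 0.957 with C5ar2, 0.939 with Cr1l and 0.938 with C3ar1. Itgax had an r below 0 with every other member, from -0.11 with Itgam to -0.65 with Cr1l. Cd59a stood apart as well, with r from -0.18 with Itgam to 0.52 with C5ar2. Itgam had an r of 0.41 with Cr1l. These values are descriptions over 8 libraries that share a gradient of melanoma RNA. Among 11120 other genes with a mean of at least 1 FPKM, the closest pattern was that of Hcls1 for Itgb2 (r = 0.999), Picalm for Cr1l (r = 0.995), Bach2os for C5ar2 (r = 0.996), Dusp22 for C3ar1 (r = 0.992) and Lin37 for Cd55 (r = 0.988). Fam50a for Cd59a (r = 0.985), Vac14 for C5ar1 (r = 0.978), AI480526 for Itgam (r = 0.967) and Cdca4 for Itgax (r = 0.929) were less close. For Itgax the next were Zmiz2 (r = 0.920) and Mtg2 (r = 0.916).

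**Figure D5:**
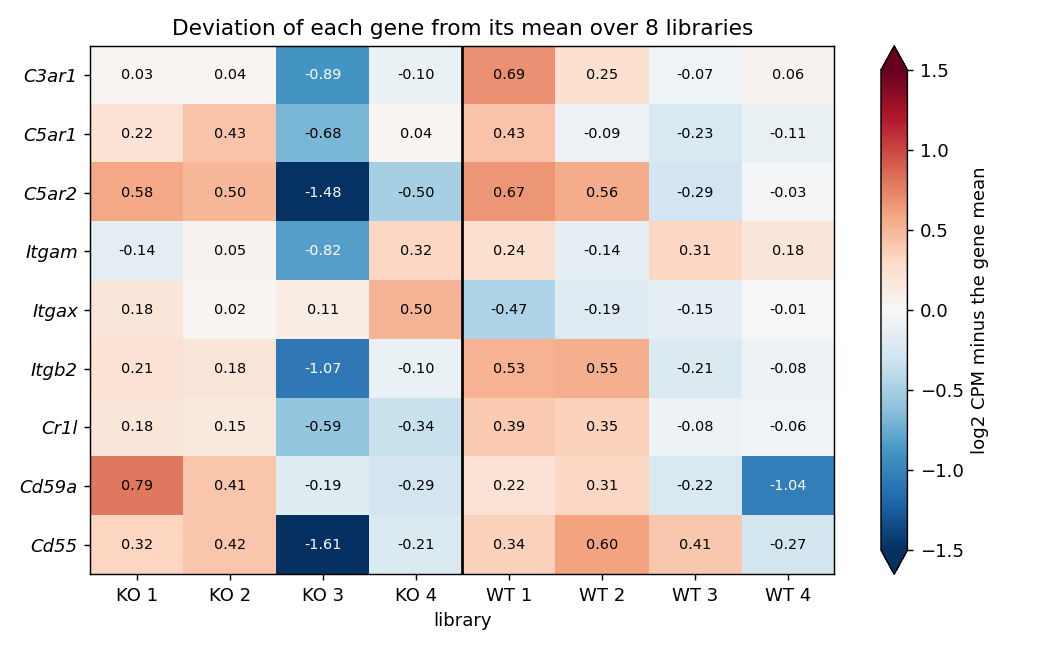
Log2 CPM of each of the 9 genes minus its mean over the 8 libraries, with KO libraries left of the line and WT libraries right of it. KO 3 is far below the mean in most rows (-1.61 for Cd55 and -1.48 for C5ar2) but above it for Itgax (0.11), and the Itgax row is above 0 in all KO libraries and below 0 in all WT libraries.

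The other genes of the pathway, from 4 lists, had mostly lower values in KO. Of 23 tested complement components, which supply the ligands of these receptors, 22 had lower values and 0 passed (median log2 fold change -0.57, against -0.0028 for all tested genes). With the block 7 fell, where 5.01% of all genes fell. The most abundant were the C1q chains C1qa (1732 ± 673 CPM in KO and 2577 ± 619 CPM in WT), C1qb and C1qc and the lectin pathway ficolin Fcna, with log2 fold changes from -0.57 to -0.43. Of these C1qa and C1qc fell with the block (adjusted p = 0.0424 and 0.0422). With the melanoma covariate and no block C1qa was at -0.19, C1qb at -0.17, C1qc at -0.15 and Fcna at 0.10 (log2, KO minus WT), and none of them passed. The other 5 that fell with it, named after their values were seen, were the protease genes C1ra and C2, the pore gene C6, which is also a Kupffer marker here, and C3 and C4b. C3, the source of the ligands of C3ar1 and of both integrins, had 109 ± 29.7 CPM in KO and 203 ± 44.6 CPM in WT (n = 4 each), and its log2 fold change was -0.89 ± 0.240 without the block (adjusted p = 0.492) and -0.90 with it (adjusted p = 0.0455). All 12 Kupffer markers had lower values in KO too, but they include Vsig4, whose low value follows from the genotype. The 6 hepatocyte markers summed to 144 to 606 CPM in KO and 370 to 1649 CPM in WT. The 6 stellate cell markers summed to 33.0 to 45.8 CPM in KO and 65.7 to 166 CPM in WT. The part of Kupffer, hepatocyte and stellate cell RNA in the component values was not tested.

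Among 16 other tested receptors and regulators Vsig4 alone passed, with a log2 fold change of -12.85 (adjusted p = 5.35e-05). The median was -0.55. With the block Vsig4 and the C1 inhibitor gene Serping1 were among the genes that fell, and Cd93 and C1qbp rose, where 5.01% of all tested genes fell and 8.98% rose. Cd93, a lectin-like surface protein once described as a C1q receptor and named here after its values were seen, had 45.4, 41.6, 45.3 and 66.2 CPM in KO 1 to 4, and 27.9, 22.8, 22.7 and 35.3 CPM in WT 1 to 4. Its KO libraries all lay above its WT libraries, as those of Itgax did and as held for 2.71% of all tested genes. The reverse held for 3 genes of this list, Vsig4 among them, and for 3 components, C3 among them. It held for 2.85% of all tested genes. The log2 fold change of Cd93 was 0.87 ± 0.199 (adjusted p = 0.492, and 0.0254 with the block). With the melanoma covariate and no block Cd93 was at 0.76 ± 0.214, and neither it nor C1qbp passed. C1qbp was then at 0.26 ± 0.148, against 0.64 ± 0.240 without the covariate. With the covariate and the block, a fit chosen after seeing the data, Cd93 was at 0.95 ± 0.214 (adjusted p = 0.701 in edgeR's test). Endothelial cells also carry Cd93. The 6 endothelial markers had lower values in KO, with sums of 292 to 993 CPM in KO and 703 to 1504 CPM in WT. Cdh5 alone had 141 to 542 CPM in KO and 364 to 879 CPM in WT, a large part of these sums. Stab2 had 96.5 to 304 CPM in KO and 206 to 401 CPM in WT. Like the Kupffer sum, both genes were lowest in KO 3 and highest in WT 1. These sums may therefore hold Kupffer RNA, and its part in them was not tested. The part of endothelial cells in the Cd93 values was not tested.

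Integrin partners and ligands (17 tested) had a median of -0.39, with 0 passing, and with the block 6 fell and 2 rose, where 5.01% of all tested genes fell and 8.98% rose. The 2 were the kindlin gene Fermt2 and the junction molecule gene Jam3, whose log2 fold changes were 0.051 and 0.11 with the melanoma covariate, against 1.03 and 1.17 without it. Itgal had 794, 669.7, 269 and 569 CPM in KO 1 to 4, and 1135, 1119.7, 558 and 737 CPM in WT 1 to 4, a range with KO 3 at the bottom (log2 fold change -0.63 ± 0.358, adjusted p = 0.492, and 0.0283 with the block). The adaptor Tyrobp had a log2 fold change of -0.50 ± 0.346 and the small GTPase Rap1b one of -0.44 ± 0.305. Both fell with the block (adjusted p = 0.0451 and 0.0415). With the melanoma covariate and no block Itgal was at -0.12, Tyrobp at -0.062 and Rap1b at 0.016.

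Genes that relay or end anaphylatoxin receptor signals (16 tested) had a median of -0.27 with 0 passing, and with the block 2 fell, where 5.01% of all tested genes fell. These were the regulators of G protein signalling Rgs1 (821 ± 285 CPM in KO and 1329 ± 367 CPM in WT; log2 fold change -0.70 ± 0.296, adjusted p = 0.492, and 0.0254 with the block) and Rgs2 (log2 fold change -0.57 ± 0.178, adjusted p = 0.492, and 0.0254 with the block). The G protein subunit Gnai2 was at -0.24 ± 0.229 and the arrestin Arrb2 at -0.30 ± 0.318, and neither passed. With the melanoma covariate Rgs1 was at -0.29 and Rgs2 at -0.43, and neither passed. In that fit the median was -0.66 for the components and -0.88 for the other receptors and regulators, but 0.0062 for the integrin partners and 0.075 for the signalling genes.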

How the data were processed

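Bulk RNA-seq of sorted Kupffer cells was taken from 1 deposited table. The submitters' processing notes list HTSeq 0.6.1 and mm10. No source used here names an aligner, a strandedness or a gene annotation version, so overlapping and near-identical genes could not be told apart. The deposited columns are raw counts per gene and FPKM values, by their header names. FPKM matched count over exonic size and column total within 0.015 for 100% of genes. The table also holds gene sizes and positions as other numbers, and 0 columns of values were left unmapped. Columns whose names start with K were taken as KO libraries and those with C as WT (control) libraries, numbered as in their titles.

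Genes kept by filterByExpr (15870 of 56691) were scaled by TMM and compared by the quasi-likelihood F test of edgeR 4.0.16 in R 4.3.3, 2-sided, calling genes at a Benjamini-Hochberg adjusted p under 0.05 (adjusted over every gene tested). Counts stayed as deposited. SEs came from the unshrunken coefficient and F. The biological coefficient of variation was 33.3%. Alternatives used DESeq2 1.42.0, limma 3.58.1 on log2(FPKM + 1), other scalings and filters, covariates and left-out libraries. Within-library ratios were tested by exact permutation (70 assignments, smallest p 0.0286). The script was tested on simulated counts. Log2 CPM used a prior count of 2. A count of 0 allows 3 counts, 0.153 to 0.214 CPM, for counting error only. Every pair of same-genotype libraries differed by more than sampling noise (chi-square per degree of freedom at least 10.02).

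Deviations from the genotype means correlated between same-numbered libraries at 0.561, 0.544, 0.660 and 0.290 over all tested genes, above the 0.1 set for pairing, so blocked values are given where they change a call. Only 4 of the 8 libraries correlated best with the library of their own number in the other genotype (KO 2, KO 3, WT 1 and WT 3). The pairing is read from the data, not the labels, and numbers 1 and 2 have less melanoma RNA than 3 and 4 in both genotypes. The members and lists were chosen with earlier results of these data known. All 9 members are named, as are list genes past the threshold or otherwise the 4 with the highest FPKM, and genes of similar pattern without provisional symbols. Some list genes that this rule names are not reported here.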

Additional observations from a re-analysis of the deposited data

Results flagged for a closer look

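Of 36 groups of 4 libraries examined, 1 held a library apart from the others, where chance gives about 1 in 20. Cd55 per 100 Cr1l was 75.7 in KO 3, against 169 to 187 in the other 3 KO libraries, and the gap took 0.839 of the range of the group. Without that library Cd55 had a log2 fold change of -0.11, and KO 3 was also the library with the most melanoma RNA (12106 CPM). The part of that RNA in the low ratio was not tested.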

How the results depend on the processing

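Over 22 alternatives, fold changes of the 9 genes and Vsig4 kept direction and side of the threshold in 196 of 220 cases, and Itgax and Cd59a were higher in KO in all 22. Vsig4 passed in all. 22 values changed sign without passing (log2, KO minus WT), and the cause was not tested. With Kupffer scaling, whose all-gene median is 0.81, these were C3ar1 0.25, C5ar2 0.27, Itgam 0.38, Itgb2 0.31, Cr1l 0.45 and Cd55 0.12. With the melanoma covariate they were C5ar2 0.24, Itgb2 0.078 and Cr1l 0.0025. Without WT 1, WT 2 and KO 3 they were C3ar1 0.00042, C5ar2 0.43, Itgb2 0.25, Cr1l 0.085 and Cd55 0.099. C5ar1 was at 0.032 with none of these changes, at 0.70 with Kupffer scaling, at 0.41 without WT 1, WT 2 and KO 3, and at -0.30 with the melanoma covariate and the block, a fit chosen after seeing the data. With single libraries left out it ran from -0.12 to 0.21, being -0.028 and -0.12 without KO 1 and KO 2 and -0.0094, -0.053 and -0.018 without WT 2, WT 3 and WT 4. With the block it was -0.19 without number 2 and -0.058 without number 4.

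The replicate block called 2220 genes, 1 of the 9 genes (Itgax) and 21 pathway genes other than Vsig4, where the fit without it called 1, 0 and 0. Without number 1, 2, 3 or 4 the blocked fit called 210, 2, 1 and 2199 genes, and from 0 to 1 of the 9 and from 0 to 20 pathway genes. The 1 was C3ar1 without number 4 (log2 fold change -0.57, adjusted p = 0.0469). The block changed no other call among the 9. DESeq2 called 62 genes and 1 pathway gene (Cd93). The fit with no filter on low counts and the fit with the covariate and the block each called 2 genes, and leaving out single libraries gave 1 to 2. Cd59a, at 25 to 108 counts, is limited by depth.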
